A study of Homo sapiens with 14 samples.

Results

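Abasic miR-34a-RS was compared with unmodified miR-34a-WT in HEK293T cells, an established line of human embryonic kidney origin that expresses SV40 large T antigen, a viral protein that binds p53. The comparison used 9 of the 14 RNA-seq libraries of the study, chosen by the treatment in the labels: miR-34a-WT replicates 1 to 5 (n = 5) and miR-34a-RS replicates 1, 2, 3 and 5 (n = 4). All groups shared the cell line, a transfection and RNA collection 24 h later. The miR-34a-WT cells received the natural duplex. The miR-34a-RS cells received a duplex in which guide positions 13 and 14, counted from the 5′ end, were rSpacer residues, which keep the sugar and phosphate of the RNA backbone but carry no base. The 5 control libraries, from cells given the AllStars negative control siRNA, are used here as a reference level. They also enter the filter on low counts and, in the fit of all 14 libraries described below, the scaling and the estimate of the spread. The study asked how much pairing beyond the seed adds to targeting. The dose of duplex, the amount of guide bound by Argonaute and whether the replicates were separate cultures are not given in the sources used here, so a p-value here reflects how far these libraries vary, and that variation may be technical.

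A microRNA guides an Argonaute protein to mRNAs, mostly through the seed, guide positions 2 to 8, and the bound mRNA is destabilised or translated less. Additional pairing of bases past the middle of the guide, called supplementary or 3′ pairing, can strengthen some sites, and the target bases left unpaired between the seed match and that second stretch form a loop. The gene of miR-34a is activated by p53, and its known targets include regulators of the cell cycle, of Notch signalling and of cell survival. An abasic residue continues the backbone but has no base and cannot form a base pair. Thus miR-34a-RS keeps the seed and lacks the bases that would pair at positions 13 and 14.

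The guide is shown with the seed and then with the positions that were abasic in miR-34a-RS in capitals (hsa-miR-34a-5p, RefSeq, GRCh38.p14, chr1:9151735-9151756, minus strand).
miR-34a-5p, seed: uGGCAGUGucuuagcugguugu
miR-34a-5p, positions 13 and 14: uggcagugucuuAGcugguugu
The target words are the reverse complement of the seed, and the words searched in 3′ UTRs were CACTGCC (7mer-m8), CACTGCCA (8mer), ACTGCCA (7mer-A1) and ACTGCC (6mer), on the transcript strand, each longer word containing the 6mer. The complement of positions 13 to 16 is AGCT. Of 13611 tested genes with an annotated 3′ UTR, 17.7% held an 8mer or 7mer-m8, and 1.64% held one with AGCT upstream at a distance of 1 to 15 target bases from the partner of position 8.

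The sites below, all within annotated 3′ UTRs on GRCh38, are from genes on which the results turn. Capitals mark the seed match at the right and the longest stretch of contiguous 3′ pairs at the left, and the lower-case letters between them are the loop, which in a 6mer or 7mer-A1 site also holds the base opposite position 8.
MPP2, 7mer-m8, pairs 13 to 17: CAGCTtctCACTGCC
TBC1D13, 7mer-m8, pairs 13 to 16: AGCTtgggcCACTGCC
TBC1D13, second 7mer-m8, pairs 14 to 18: CCAGCagaCACTGCC
ACSL4, 8mer, pairs 12 to 16: AGCTAgaaCACTGCCA
ZCCHC17, 8mer, pairs 13 to 18: CCAGCTgcCACTGCCA
LIMD2, 8mer, pairs 13 to 16: AGCTccctCACTGCCA
SREBF2, 8mer, pairs 13 to 16: AGCTgggtggtggCACTGCCA
HK1, 7mer-m8, pairs 14 to 19: ACCAGCagaCACTGCC
SH3GL1, 6mer, pairs 13 to 17: CAGCTttttaACTGCC
RBM38, 6mer, pairs 14 to 17: CAGCggatACTGCC
RCAN1, 8mer, pairs 15 to 17: CAGtttCACTGCCA
SIRT1, 7mer-A1, pairs 12 to 18: CCAGCTAggaccattACTGCCA
PPP1R11, 8mer, pairs 13 to 18: CCAGCTttCACTGCCA
SKI, 7mer-m8, pairs 13 to 16: AGCTcgaaCACTGCC
The first 12 are from genes that were higher with miR-34a-RS, and the last 2 are not. PPP1R11 was not called, although its site pairs as long as that of ZCCHC17, and SKI was called lower, with a loop as short as that of LIMD2. Not every site of these genes is printed. SH3GL1 also holds a 7mer-m8 with 3 pairs, at 17 to 19, and a loop of 16 bases. RAB36, called lower and not printed here, holds a 6mer with 7 pairs, at 13 to 19, and a loop of 15 bases. In genome coordinates the MPP2 site is chr17:43877127-43877141 (minus strand), the TBC1D13 sites are chr9:128809934-128809949 and chr9:128809956-128809970 (plus strand), and the ACSL4 site is chrX:109642109-109642124 (minus strand). SREBF2 carries its site at chr22:41905626-41905646 (plus strand), SIRT1 at chr10:67918012-67918033 (plus strand), PPP1R11 at chr6:30069661-30069676 (plus strand) and SKI at chr1:2307345-2307359 (plus strand).

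The 9 libraries held 25.92 to 36.26 M counts each, and 18321 genes passed the filter on low counts. Within miR-34a-RS, replicate 1 stood apart: the chi-square per degree of freedom over genes was 11.8 to 13.5 between it and the other miR-34a-RS libraries and 5.61 to 9.04 among those others. Mitochondrially encoded genes took 2.71% ± 0.374 of the counts in miR-34a-RS libraries (SD, n = 4), lowest at 2.19% in replicate 2, and 3.05% ± 0.293 in miR-34a-WT libraries (SD, n = 5). Markers of other cell types were low. Of 12 fibroblast markers 6 passed the filter, COL1A2 and FAP had no count in any of the 9 libraries, and the summed level was 45.6 to 52.1 CPM (counts scaled to a common library size with TMM factors) with miR-34a-WT and 48.1 to 53.9 CPM with miR-34a-RS. Of the blood cell markers, PTPRC and CD3E had at most 1 count per library. MIR34AHG, the host gene of miR-34a, was at 11.7 ± 1.29 CPM in miR-34a-WT (SD, n = 5) and 13.3 ± 1.41 CPM in miR-34a-RS libraries (SD, n = 4; log2 difference 0.18, SE 0.08, edgeR adjusted p = 0.376).

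Libraries with the same replicate number deviated together. Over 11224 genes of at least 5 CPM, the deviations of a miR-34a-RS library from its group mean correlated with those of the same-numbered miR-34a-WT library at 0.449 to 0.706, against -0.543 to 0.165 for differently numbered libraries, and all 4 libraries correlated best with their own number. These values are across genes, which are not independent replicates, and what a replicate number stands for is not given in the labels. Values are therefore given without a block, from a fit of all 14 libraries, and, for counts and for calls that the block changes, also with the replicate number as a block over replicates 1, 2, 3 and 5 of both groups, a fit that leaves out miR-34a-WT replicate 4. All genes named below as called without the block were also called with it.

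**Figure D1:**
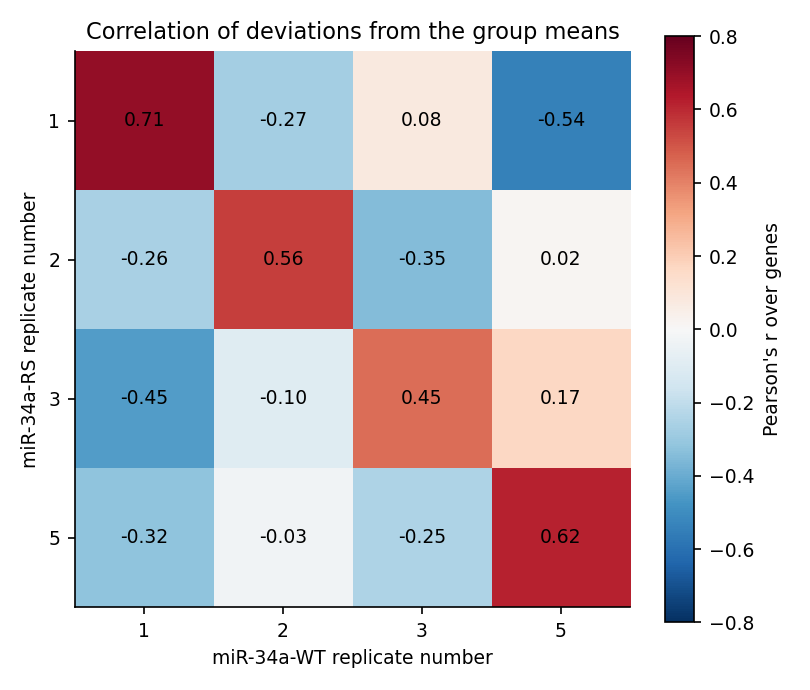
Pearson correlation, over 11224 genes, between the deviations of each miR-34a-RS library (rows) and each miR-34a-WT library (columns) from their group means; the colour scale runs from -0.8 to 0.8. The diagonal, where replicate numbers match, holds the highest value of every row, 0.449 to 0.706.

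Without the block, 286 genes changed between the abasic and the unmodified microRNA, 1.56% of 18321 tested (edgeR quasi-likelihood test, Benjamini-Hochberg adjusted p under 0.05 over all tested genes, the rule behind every call below). Of these, 188 were higher with miR-34a-RS (1.03%) and 98 lower (0.535%). Only 36 of the higher and 2 of the lower genes differed by at least 0.5 on the log2 scale, and the median absolute log2 difference of the 286 was 0.299. At an unadjusted p under 0.05, 1168 genes were higher and 1059 lower. The groups did not overlap for 882 genes (4.81%), among them 259 of the 286.

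With the replicate block 2335 genes changed (12.7%), 1094 higher (5.97%) and 1241 lower (6.77%), and all 286 genes called without it were among them. The additional genes differed little in size, with a median absolute log2 difference of 0.155, and 74 higher and 20 lower genes in all reached 0.5. Over genes of at least 5 CPM the median standard error of the log2 difference was 0.0586 without the block and 0.0397 with it. A block over all 14 libraries, which keeps miR-34a-WT replicate 4, called 1254 genes (6.84%), 285 of the 286 among them. The balance of the unblocked calls moved with the treatment of the counts: 65.7% of them were higher under TMM scaling and 75.7% under upper-quartile scaling (234 higher, 75 lower), although the median of all genes moved only from -0.0029 to 0.012. Leaving out miR-34a-RS replicate 1 raised the unblocked calls to 344 higher and 417 lower, and leaving out miR-34a-RS replicate 2 or 3 reduced them to 112 or 110 higher and 31 lower.

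**Figure D2:**
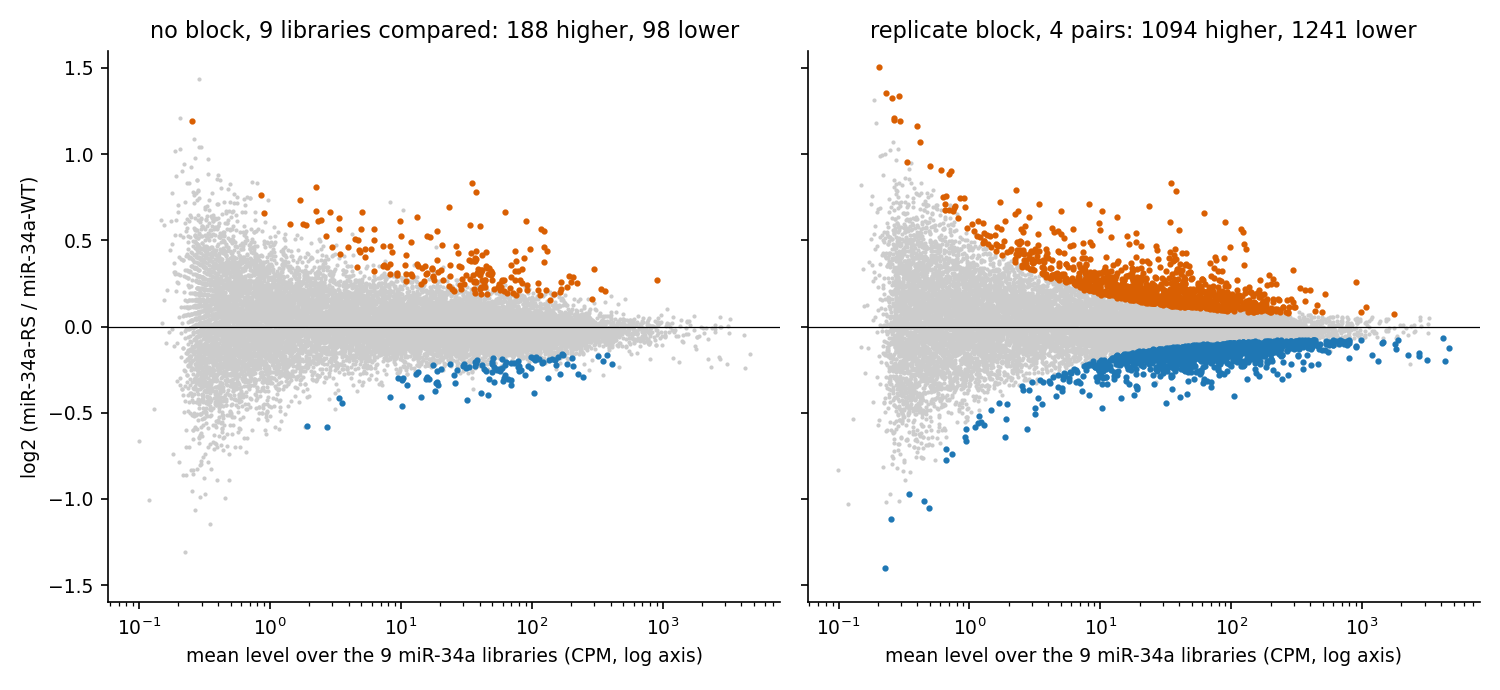
Log2 ratio of miR-34a-RS to miR-34a-WT for 18321 genes against their mean level over the 9 libraries in CPM on a log axis, without the block (left) and with it (right); orange and blue points are genes called higher and lower, grey points are not called. The median absolute log2 difference of the called genes is 0.299 on the left and 0.165 on the right.

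MPP2, the gene of a MAGUK protein that organises membrane complexes, gave the largest rise by the rule for naming genes (ENSG00000108852, chr17:43875357-43909711). Its level was 25.8, 25.6, 24.7, 25.5 and 27.2 CPM in miR-34a-WT replicates 1 to 5 and 44.7, 47.2, 47.1 and 44.8 CPM in miR-34a-RS replicates 1, 2, 3 and 5. The groups were far apart, and both lay below the control libraries, at 72.9 to 84.0 CPM. The log2 difference was 0.84 without the block (SE 0.05, edgeR adjusted p = 2.59e-10) and 0.84 with it (SE 0.04, adjusted p = 4.37e-20). In percent of the control mean, MPP2 stood at 57.2 under the abasic and 32.1 under the unmodified microRNA. Its 3′ UTR holds 3 seed matches of the 8mer or 7mer-m8 kind, of which the one printed above pairs at 13 to 17.

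RBM38 encodes an RNA-binding protein and is a p53 target gene (chr20:57391407-57409333). It was at 27.0, 30.9, 27.4, 28.5 and 28.8 CPM with miR-34a-WT and at 43.5, 49.1, 51.6 and 52.0 CPM with miR-34a-RS, and at 52.3 to 65.8 CPM in control. No miR-34a-RS library came near the miR-34a-WT range, and the lowest of them was replicate 1. RBM38 rose by 0.78 on the log2 scale (SE 0.06, edgeR adjusted p = 4.61e-08), and its 3′ UTR holds a 6mer but no longer seed match. RCAN1, an inhibitor of the phosphatase calcineurin (chr21:34513142-34615142), was at 19.9, 18.6, 16.8, 18.4 and 17.9 CPM with miR-34a-WT and at 31.1, 31.9, 27.9 and 27.8 CPM with miR-34a-RS. That is a log2 rise of 0.70 (SE 0.06, edgeR adjusted p = 5.24e-08), from 49.0% to 79.4% of the control mean.

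SH3GL1, which encodes an endophilin of clathrin-mediated endocytosis (chr19:4360370-4400547), was at 48.0, 49.97, 48.0, 48.7 and 52.7 CPM with miR-34a-WT and at 70.7, 77.4, 84.5 and 80.9 CPM with miR-34a-RS (log2 0.66, SE 0.06, edgeR adjusted p = 3.52e-07). TBC1D13, a GTPase-activating protein for Rab proteins (chr9:128787204-128810432), was at 25.8, 27.1, 29.4, 28.9 and 27.3 CPM and at 40.2, 39.98, 44.5 and 41.9 CPM (log2 0.59, SE 0.06). ACSL4, which joins long-chain fatty acids to coenzyme A (chrX:109624244-109733403), was at 36.6, 32.1, 32.4, 31.0 and 32.8 CPM and at 56.8, 48.0, 46.9 and 45.4 CPM (log2 0.58, SE 0.06). For all 3 genes every miR-34a-RS library was above every miR-34a-WT library and below every control library. The kit does not mark strand and an unnamed gene lies on the opposite strand of SH3GL1, so reads of that pair cannot be told apart.

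**Figure D3:**
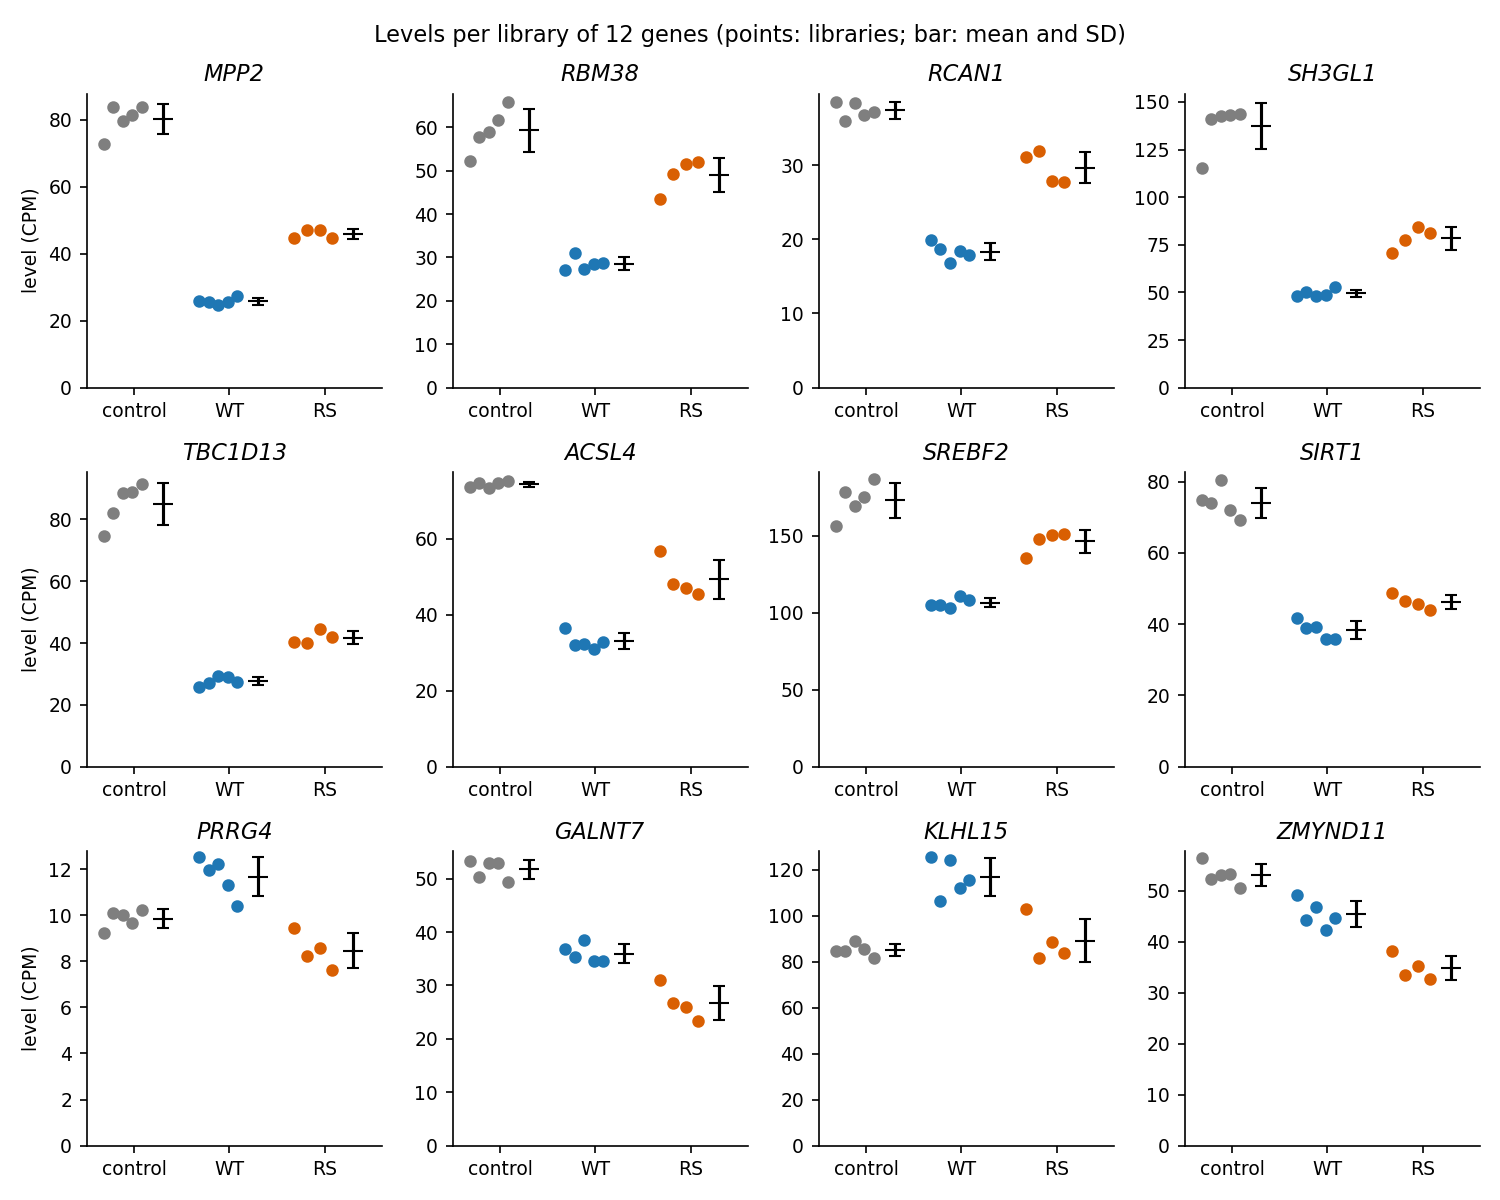
Level in CPM of 12 genes in each control, miR-34a-WT and miR-34a-RS library (points), with the mean and SD beside them; every axis starts at 0. In the 8 genes from MPP2 to SIRT1 the miR-34a-RS libraries lie between the other groups, and in GALNT7 and ZMYND11 they lie below both.

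The rest of the 12 largest rises ran from 0.66 to 0.56 on the log2 scale. PIP4P2, a phosphoinositide phosphatase gene, rose by 0.66 (SE 0.10) and PCOLCE2, which encodes an enhancer of procollagen processing, by 0.64 (SE 0.07), although the 3′ UTR of PCOLCE2 holds no 6mer. GINS1, a subunit of the GINS complex of the replication fork, rose from 72.6 ± 5.33 (SD, n = 5) to 111 ± 9.91 CPM (SD, n = 4; log2 0.61, SE 0.06, edgeR adjusted p = 5.8e-07), and its highest library was miR-34a-RS replicate 1, at 125 CPM. RTL8B, which has near-identical copies and is therefore uncertain, rose by 0.61 (SE 0.07). JOSD2, a deubiquitinase gene, gave 0.57 (SE 0.10) and GTF2F1, which encodes a subunit of the transcription factor TFIIF, 0.56 (SE 0.05), the latter to 106% of the control mean. ECHS1, an enzyme of fatty acid oxidation singled out after its values were seen, rose by 0.56 (SE 0.04) with no 6mer in its 3′ UTR. All 12 genes passed the threshold with the block, and their groups did not overlap.

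Among genes that pair at 13 to 16, the other 3 with the smallest p were ZCCHC17, SREBF2 and LIMD2. ZCCHC17, a zinc finger protein gene, was at 39.1, 43.2, 37.4, 37.7 and 36.6 CPM with miR-34a-WT and at 49.4, 53.3, 52.7 and 53.7 CPM with miR-34a-RS, close to the control range of 54.1 to 57.4 CPM (log2 0.43, SE 0.05, edgeR adjusted p = 1.21e-05). SREBF2, the master transcription factor of cholesterol synthesis, was at 105, 105, 103, 111 and 108 CPM and at 136, 148, 151 and 151 CPM (log2 0.46, SE 0.05, edgeR adjusted p = 3.24e-06). LIMD2 rose by 0.56 (SE 0.07), and it overlaps MAP3K3 on the opposite strand, so its value is uncertain. Levels of SREBF2 in control were 156 to 187 CPM, above every miR-34a-RS library.

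The falls were smaller. PRRG4, which encodes a membrane protein with a Gla domain, was at 12.5, 11.96, 12.2, 11.3 and 10.4 CPM with miR-34a-WT and at 9.46, 8.21, 8.56 and 7.61 CPM with miR-34a-RS, against 9.21 to 10.2 CPM in control. It fell by 0.46 on the log2 scale (SE 0.07, edgeR adjusted p = 0.000807). GALNT7, an enzyme that starts O-linked glycosylation, was at 36.9, 35.4, 38.5, 34.5 and 34.5 CPM and at 31.0, 26.7, 25.9 and 23.4 CPM, and control at 49.3 to 53.2 CPM, so that both groups lay below control and the abasic microRNA gave the lower level (log2 -0.43, SE 0.06, edgeR adjusted p = 0.000317). ZMYND11, a chromatin reader, went the same way, from 45.5 ± 2.59 (SD, n = 5) to 34.9 ± 2.44 CPM (SD, n = 4) with control at 53.2 ± 2.18 CPM (log2 -0.38, SE 0.06). GALNT7 holds an 8mer and ZMYND11 a 7mer-m8.

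KLHL15, an adaptor of a cullin ubiquitin ligase, has no 6mer in its 3′ UTR. It was at 126, 106, 124, 112 and 115 CPM with miR-34a-WT and at 103, 81.6, 88.7 and 83.7 CPM with miR-34a-RS (log2 -0.39, SE 0.06), close to the control level of 85.1 ± 2.595 CPM (SD, n = 5). Others of the 12 largest falls were GPR137B, a lysosomal membrane protein gene (-0.41, SE 0.07), LRGUK (-0.41, SE 0.09), CHIC1 (-0.37, SE 0.07), RAPGEF6 (-0.34, SE 0.07), NCEH1, an enzyme of cholesterol ester breakdown (-0.34, SE 0.07), RPS6KA5 (-0.32, SE 0.06), RPP40 (-0.32, SE 0.07) and RAB36 (-0.32, SE 0.07). RPS6KA5 overlaps DGLUCY on the opposite strand. Leaving out 1 library ended the call of RAB36 without miR-34a-RS replicate 2 (edgeR adjusted p = 0.057), of RAPGEF6 without miR-34a-RS replicate 2, 3 or 5 (up to 0.0688), of RPP40 without miR-34a-RS replicate 2 or 3 or miR-34a-WT replicate 1 or 3 (up to 0.0794), and of LRGUK without miR-34a-RS replicate 2 or 3 or miR-34a-WT replicate 3 or 5 (up to 0.0943).

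Set beside control, the called genes showed where each group stood. The median log2 difference from control of the 188 genes higher with miR-34a-RS was -0.52 for the unmodified and -0.19 for the abasic microRNA, and 180 of them were below control with miR-34a-WT. The miR-34a-RS mean was nearer to the control mean than the miR-34a-WT mean was for 169 of 188, against 10256 of all 18321 tested genes. For the 98 genes lower with miR-34a-RS the medians were 0.17 and -0.11, and 50 of them were nearer to control. These shares use the libraries that chose the genes and the same control libraries for both microRNAs, and are a description.

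The 6 genes with the smallest p among those called with the block only show what the pairing of libraries changed. C4orf48 was at 7.70, 8.22, 12.5 and 4.67 CPM in miR-34a-WT replicates 1, 2, 3 and 5 and at 13.4, 13.96, 17.9 and 7.23 CPM in the same-numbered miR-34a-RS libraries. The groups overlap, yet each pair differs by 0.51 to 0.79 on the log2 scale, and its adjusted p in edgeR was 0.408 without the block and 1.02e-10 with it. MARCKSL1, an actin-regulating protein kinase C substrate gene, was higher by 0.21 with the block (SE 0.03). PDCD4, a tumour suppressor gene that inhibits translation, was lower by 0.27 with the block (log2 -0.27, SE 0.03), HSPA1B, a heat shock chaperone gene with a near-identical copy, gave -0.28 (SE 0.03), REEP3 -0.36 (SE 0.05) and MT-ND4 -0.20 (SE 0.02). The block over all 14 libraries lost the call of REEP3 (edgeR adjusted p = 0.111). PDCD4 overlaps BBIP1 on the opposite strand.

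Reported targets of miR-34a, a list of 56 measured genes, held calls in both directions. The median log2 difference between the microRNAs was -0.005, against -0.003 over all tested genes. The median difference from control was -0.84 under the unmodified and -0.71 under the abasic microRNA. These medians were taken separately, so their gap need not equal the median of the gene differences. Without the block 6 were higher and 2 lower, 14.3% of the list against 1.56% of all tested genes. With it 9 were higher and 5 lower, where 12.7% of all tested genes were called. Without miR-34a-RS replicate 1 the unblocked counts were 7 and 4, and without miR-34a-RS replicate 2 they were 6 and 0. The 6 were RCAN1, IL6R, an interleukin receptor gene (0.81, SE 0.12, at 1.69 and 2.96 CPM), ULBP2, a ligand of a natural killer cell receptor (0.66, SE 0.10, at 2.26 and 3.59 CPM), TPD52 (0.52, SE 0.08), PODXL (0.34, SE 0.05) and SIRT1. SIRT1, a deacetylase gene, was at 41.7, 39.1, 39.1, 36.0 and 36.0 CPM with miR-34a-WT and at 48.6, 46.6, 45.6 and 43.9 CPM with miR-34a-RS, with control at 69.1 to 80.4 CPM. Its groups did not overlap, and it rose by 0.27 on the log2 scale (SE 0.05, edgeR adjusted p = 0.00888), called in each of 18 alternative fits.

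Several other reported targets differed between the microRNAs by less than the spread between libraries, which does not show that their levels are equal. CDK6, a kinase of the G1 phase, was at 34.1 ± 2.29 (SD, n = 5) and 32.6 ± 4.08 CPM (SD, n = 4) against 104 ± 6.14 CPM in control (log2 difference between the microRNAs -0.06, SE 0.07). MET, a growth factor receptor gene, gave -0.03 (SE 0.06), NOTCH2 0.03 (SE 0.06), CDK4, which overlaps TSPAN31 on the opposite strand, -0.04 (SE 0.05), HDAC1 -0.01 (SE 0.04), MYC -0.02 (SE 0.04) and BCL2 0.09 (SE 0.07). PPP1R11, whose site near the end of the list above pairs at 13 to 18 with a loop of 2 bases, was at 40.6 CPM in control, and at 10.7 ± 0.38 CPM with the unmodified (SD, n = 5) and 11.2 ± 0.275 CPM with the abasic microRNA (SD, n = 4; log2 0.06, SE 0.06). NECTIN1, a cell adhesion gene outside the list with 6 sites of the 8mer or 7mer-m8 kind, gave 0.20 (SE 0.08, edgeR adjusted p = 0.32, 0.022 with the block and 0.065 with the block over all 14 libraries). CCND1, the cyclin D1 gene, and the transcription factor gene E2F3 were the 2 called lower, at -0.31 (SE 0.08) and -0.17 (SE 0.04). Both calls were lost in 8 or 9 of 18 alternative fits (edgeR adjusted p up to 0.11 and 0.198), and CCND1 overlaps LTO1 on the opposite strand. The genes of this paragraph were singled out after their values were seen.

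Across 3′ UTRs, the kind of seed match alone separated the microRNAs little. Genes without a 6mer (n = 8831) had a median log2 difference of -0.005, with 82 called higher and 39 lower. The median was -0.018 for 6mer (n = 1546), -0.034 for 7mer-A1 (n = 822), 0.005 for 7mer-m8 (n = 1592) and -0.003 for 8mer genes (n = 820). Calls were nonetheless more often higher among the longest matches, 31 higher and 7 lower of 820 for 8mer and 39 and 12 of 1592 for 7mer-m8, against 1.36% higher and 0.698% lower of all genes with a 3′ UTR. With the block the higher and lower counts were 576 and 634 without a 6mer, 134 and 203 for 6mer, 48 and 141 for 7mer-A1, 175 and 141 for 7mer-m8 and 88 and 72 for 8mer genes. The 3′ UTRs of these classes differed in median GC content, 46.2% for 8mer, 48.7% for 7mer-m8 and 41.9% without a 6mer. After removal of the GC and length trend, the unblocked counts were 47 and 36 for 8mer and 67 and 59 for 7mer-m8 genes. They were then 171 and 209 without a 6mer, 42 and 76 for 6mer and 28 and 40 for 7mer-A1 genes. Genes with no 6mer in the 3′ UTR but a 7mer-m8 in the coding sequence (n = 1549) had a median of 0.027, with 32 higher and 2 lower, and those with neither (n = 7282) -0.011, with 50 and 37. With the block the counts were 192 and 59, and 384 and 575. The median GC content of the 3′ UTRs was 47.0% and 41.2%, and with the GC and length trend removed the counts were 66 and 28, with a median of 0.010, and 105 and 181, with a median of -0.013.

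The 223 seed-match genes with pairing at 13 to 16 had a median log2 difference of 0.024 without the block and 0.035 with it, and 14 were called higher (6.28%) and 2 lower, or 35 and 18 with the block. Without miR-34a-RS replicate 3 the unblocked median was 0.00668, without miR-34a-WT replicate 4 it was 0.0348, and without miR-34a-RS replicate 1 the calls were 19 higher and 9 lower, and without miR-34a-RS replicate 2 they were 12 and 0. The 2189 seed-match genes without it had medians of 0.002 and 0.008, with 56 higher (2.56%) and 17 lower, or 228 and 195 with the block, and 84 and 88 without miR-34a-RS replicate 1. Per library, the median log2 level of the 223 genes, centred per gene and relative to genes without a 6mer, was -0.0793, -0.122, -0.117, -0.0760 and -0.0652 with miR-34a-WT and -0.0789, -0.0598, -0.0542 and -0.0451 with miR-34a-RS. The ranges overlapped, and the difference of the means was 0.0324 with a pooled SD of 0.0216. Between same-numbered libraries the difference was 0.000361, 0.0625, 0.0623 and 0.0201 for replicates 1, 2, 3 and 5, above 0 in each pair and near 0 in the first. For the 2189 genes the difference was 0.0103 with a pooled SD of 0.0152, smaller than the spread between libraries, and -0.00203, 0.0306, 0.0242 and 0.00547 between same-numbered libraries. Control libraries were at 0.113 to 0.175 for the 223 genes, above every library of either microRNA.

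Within the 223 genes the size of the loop ordered the medians. With 1 to 3 loop bases (n = 47) the median log2 difference was 0.091, with 4 to 6 (n = 49) 0.063, with 7 to 9 (n = 40) 0.016, with 10 to 12 (n = 36) -0.015 and with 13 to 15 (n = 51) -0.029. In the same order, the median log2 difference of miR-34a-WT from control was -0.325, -0.263, -0.111, -0.0595 and -0.0607. The bins thus also differed in how far their genes lay below control with the unmodified microRNA. Of the 96 genes with up to 6 loop bases 12 were called higher and 1 lower, and of the 127 with longer loops 2 and 1. With the block the counts were 27 and 8 of 96, and 8 and 10 of 127. The bins were set after the values were seen and have no test, and leaving out each library in turn moved the higher calls of the 96 genes from 9 to 15 and their median from 0.0654 to 0.0856.

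Moving the window of 4 paired bases along the guide at the same loop offset gave medians from -0.027 to 0.035. Pairing at 14 to 17 (n = 305) gave a median of 0.030 with 22 higher and 3 lower, and pairing at 15 to 18 (n = 393) 0.035 with 18 and 1. Pairing at 10 to 13 (n = 99) gave -0.027 and 4 and 0, pairing at 17 to 20 (n = 115) 0.013 and 1 and 0, and pairing at 18 to 21 (n = 96) 0.022 and 6 and 0. With the block the counts were 60 and 19 at 14 to 17, 61 and 18 at 15 to 18, 10 and 9 at 10 to 13, 7 and 13 at 17 to 20, and 13 and 7 at 18 to 21. The unblocked share called higher was 7.21% at 14 to 17, 6.28% at 13 to 16 and 6.25% at 18 to 21. Some of these genes also pair at 13 to 16. Without them the share was 6.88% at 14 to 17 (15 of 218), 3.53% at 18 to 21 (3 of 85) and 0 of 105 at 17 to 20. A window at 15 to 18 does not hold an abasic position, but its genes share members with the neighbouring windows. Leaving out pairing at 13 to 16 does not leave out pairs at position 14, also abasic, as in the HK1 site printed above. It therefore cannot separate pairing at the abasic positions from pairing past them. Among the 339 genes of the 15 to 18 window without pairing at 13 to 16 the median was 0.029, with 14 higher and 1 lower, or 50 and 15 with the block. Their 3′ UTRs were also richer in G and C, with a median of 53.1% for the 393 genes against 42.9% for all 3′ UTRs, and with the GC and length trend removed the median was 0.007 for pairing at 14 to 17 (30 higher, 11 lower), 0.007 for pairing at 15 to 18 (27 and 13) and 0.0055 for the 339 genes (22 and 11), against -0.011 over all genes with a 3′ UTR.

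**Figure D4:**
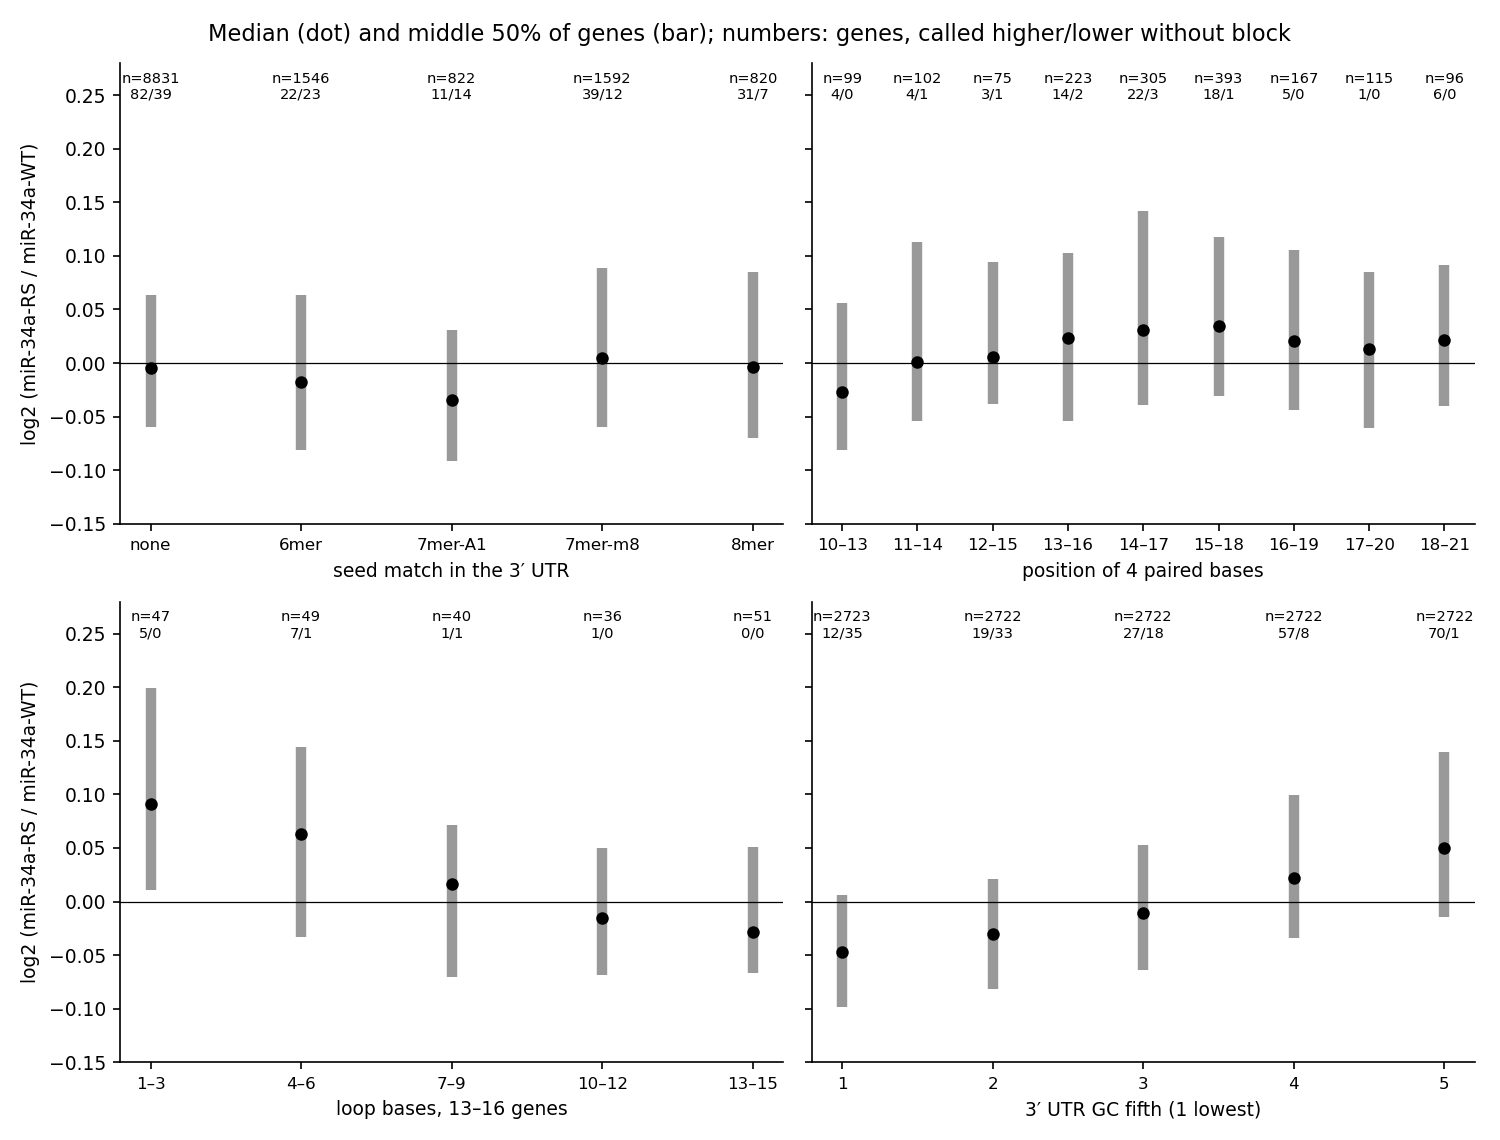
Median log2 ratio of miR-34a-RS to miR-34a-WT (dot) and middle 50% of genes (bar) by seed match, by the position of 4 paired guide bases, by the loop of 13 to 16 genes and by 5 bins of 3′ UTR GC content; printed above each are the number of genes and those called higher and lower without the block. The medians fall from 0.091 to -0.029 as the loop grows and rise from -0.047 to 0.050 with GC content.

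Base composition moved with the comparison. In 5 equal bins of 3′ UTR GC content, from lowest to highest, the median log2 difference was -0.047, -0.030, -0.011, 0.022 and 0.050. Higher calls went from 12 to 70 and lower calls from 35 to 1 between the lowest and the highest bin, of 2723 and 2722 genes, and with the block from 35 to 453 and from 544 to 33. The median GC content was 52.2% in the 3′ UTRs of higher genes, 36.3% in those of lower genes and 42.9% over all. After removal of the trend on GC content and length of the 3′ UTR in each library, 355 of 13611 genes were higher and 420 lower without the block, so that lower calls outnumbered higher ones. By loop the counts were then 15 higher and 4 lower of the 96 genes with up to 6 loop bases, and 4 and 5 of the 127 with longer loops, with medians of 0.047 and -0.025. Of the 223 genes 19 were then higher and 9 lower, with a median of 0.004 against -0.012 for the 2189. Before that removal, the 60 of the 223 genes in the highest bin had a median of 0.108, with 8 higher and 0 lower. The block called 18 and 0 of these 60. The 163 in the other bins had a median of -0.012, with 6 and 2, or 17 and 18 with the block. Genes without a 6mer had medians of 0.047 in the highest bin (n = 1747) and -0.015 in the others (n = 7084).

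Short loops with 3′ pairs that begin at 14 or 15 were found in other genes that rose, but most genes with short loops were not called. Of 259 genes with 4 or more pairs that begin at 13 to 15 and a loop of up to 6 bases, 27 were higher and 1 lower. Of 396 such genes with longer loops only, 7 were higher and 4 lower. The block called 71 and 14 of the 259, and 35 and 28 of the 396. Genes with 13 to 16 pairing counted above, such as MPP2, ZCCHC17 and LIMD2, are among the 259, so these counts partly repeat the earlier ones. RRP1B, a nucleolar protein gene, rose by 0.33 (SE 0.04), GORASP2, a Golgi stacking protein gene, by 0.34 (SE 0.05), ERLIN1 by 0.33 (SE 0.05) and MYO1C, an unconventional myosin gene, by 0.32 (SE 0.05), all on the log2 scale and each with a 3′ stretch of 4 or 5 pairs 2 to 6 bases from the seed match. HK1, the hexokinase that starts glycolysis, was at 113 ± 3.40 (SD, n = 5) and 153 ± 6.05 CPM (SD, n = 4), with control at 151 ± 5.32 CPM (SD, n = 5), a log2 rise of 0.44 (SE 0.04, edgeR adjusted p = 8.02e-07). These 5 genes were taken after their values were seen, HK1 also by the list of glycolysis genes. In that list 1 of 24 was called higher and none lower, or 3 and 2 with the block. Of all tested genes 1.56% were called without the block and 12.7% with it.

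Genes of cholesterol synthesis stood higher with miR-34a-RS. All 24 measured members had a log2 difference above 0, with a median of 0.13 against -0.003 over all tested genes, and 6 were called higher and 0 lower without the block and 15 and 0 with it, where 1.03% and 5.97% of all tested genes were called higher. The median difference of the list from control was -0.0058 for miR-34a-WT and 0.091 for miR-34a-RS. HMGCS1, which makes the precursor of mevalonate, was at 71.4, 69.0, 63.0, 67.8 and 65.4 CPM with miR-34a-WT and at 91.9, 92.2, 79.7 and 86.9 CPM with miR-34a-RS (log2 0.38, SE 0.05, edgeR adjusted p = 6.58e-05), and 94.0 to 102 CPM in control. MVD, the decarboxylase of the mevalonate pathway, rose by 0.44 (SE 0.08), IDI1 by 0.21 (SE 0.05), TM7SF2 by 0.27 (SE 0.07) and FDFT1, which commits the pathway to sterols, by 0.16 (SE 0.04). The transcription factor gene SREBF2 completed the 6. HMGCS1 holds an 8mer and SREBF2 an 8mer with 13 to 16 pairing, whereas MVD and TM7SF2 hold no 6mer. The count of 6 ran from 3, without miR-34a-RS replicate 2, to 8, without miR-34a-RS replicate 1, and was 11 with the GC and length trend removed, and the calls of TM7SF2 and FDFT1 were lost in 8 and 10 of 18 alternative fits (edgeR adjusted p up to 0.157 and 0.151). IDI1 lost its call without miR-34a-RS replicate 2 or miR-34a-WT replicate 3 or 5 (up to 0.0888), and it overlaps IDI2-AS1 on the opposite strand.

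Of 28 measured p53 target genes 1 was higher without the block, RBM38, and 9 higher and 0 lower with it. Of all tested genes 1.03% were called higher without the block and 5.97% with it. The median log2 difference of the list was 0.10. That median was 0.168 without miR-34a-RS replicate 1 and 0.0566 without miR-34a-RS replicate 2. The other 8 were CDKN1A, the inhibitor of cyclin-dependent kinases (0.17 with the block, edgeR adjusted p = 0.005), the apoptosis genes BAX (0.23) and BBC3 (0.31), PHLDA3 (0.23), GADD45A (0.18), XPC (0.16), DDB2 (0.15) and AEN (0.11). Without the block none of these 8 passed, with edgeR adjusted p from 0.17 for XPC to 0.72 for CDKN1A. XPC overlaps LSM3 on the opposite strand.

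Cell cycle lists held calls in both directions. Of 37 genes of the G1/S transition and DNA replication 16.2% were called, against 1.56% of all tested genes. Higher were 2 of them, GINS1 and the helicase subunit gene MCM5 (0.26, SE 0.05), and 4 lower, CCND1, E2F3, the phosphatase gene CDC25A (-0.19, SE 0.04) and the ribonucleotide reductase subunit gene RRM2 (-0.17, SE 0.04), with a median of -0.013, and with the block 3 were higher and 9 lower. Without miR-34a-RS replicate 1 the unblocked lower calls were 5, and without miR-34a-RS replicate 2 there was 1. CDC25A lost its call without miR-34a-RS replicate 3 or 5 and with no filter on low counts (edgeR adjusted p up to 0.104), and RRM2 in 7 of 18 alternative fits (up to 0.183). Among 28 genes of G2/M and mitosis only HMMR, a spindle protein gene, was called, lower by 0.23 (log2 -0.23, SE 0.06), and it was lost in 9 of 18 alternative fits (edgeR adjusted p up to 0.194). With the block 1 of the 28 was higher, the kinase gene PLK1 (0.14), and 9 were lower. The block called 5.97% of all tested genes higher and 6.77% lower. The median of the 28 genes was -0.043 without the block and -0.060 with it.

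Genes of cilia and centrioles were mostly lower with miR-34a-RS. The median of 48 genes of the motile cilium and axoneme was -0.12, and 36 of them had a difference below 0. Their median difference from control was 1.05 for miR-34a-WT and 1.12 for miR-34a-RS. The order of these list medians need not match the sign of the median of the gene differences. Without the block 0 were called higher and 4 lower, 8.33% of the list against 1.56% of all tested genes, and with it 2 and 10, where 6.77% of all tested genes were called lower. LRGUK, BBOF1 (-0.31, SE 0.07), the kinase gene NEK10 (-0.30, SE 0.08) and OSCP1 (-0.21, SE 0.06) were the 4. BBOF1 was at 4.49 CPM in control and fell from 18.1 ± 1.07 (SD, n = 5) to 14.6 ± 1.28 CPM (SD, n = 4), and overlaps ALDH6A1 on the opposite strand. All 4 calls were weak: each was lost in 4 to 12 of 18 alternative fits (edgeR adjusted p up to 0.198), and none of the 4 remained without miR-34a-RS replicate 2 or 3. Of 24 centriole and ciliary vesicle genes 21 had a difference below 0, and 1 was called lower without the block, CEP97 (-0.25, SE 0.06), and 8 with it. CEP97 lost its call without miR-34a-RS replicate 2, 3 or 5 or miR-34a-WT replicate 1 or 3 (up to 0.0943).

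All 13 mitochondrially encoded genes had a difference below 0, with a median of -0.19 and none called without the block, where the smallest edgeR adjusted p was 0.207, of MT-ND3. At an unadjusted p under 0.05, 6 were lower, and the DESeq2 Wald test called none. The median was -0.0949 without miR-34a-RS replicate 2 and -0.269 without miR-34a-RS replicate 3. With the block 10 of the 13 were called lower, against 6.77% of all tested genes. Among the 10 were MT-ND4, MT-CO3 (-0.20) and MT-ND1 (-0.17). MT-ND4, a subunit of respiratory complex I, was at 4575, 3776, 5050.3 and 4375 CPM in miR-34a-WT replicates 1, 2, 3 and 5 and at 4084, 3067, 4440.1 and 3908 CPM in the same-numbered miR-34a-RS libraries. Replicate 2 was lowest in both groups, and every pair differed in the same direction. In contrast, the 50 nuclear-encoded genes of the respiratory chain had a median of -0.005 with 1 higher, ATP5F1C (0.25, SE 0.05, lost without miR-34a-RS replicate 2 at an edgeR adjusted p of 0.0688), and the 76 cytosolic ribosomal protein genes a median of 0.003 with none called without the block, none at an unadjusted p under 0.05 and none by DESeq2. With the block 4 of the 50 were higher and 1 lower, and 2 and 1 of the 76, where 5.97% of all tested genes were called higher. In bulk RNA, fewer transcripts per cell and fewer cells that express a gene cannot be told apart.

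**Figure D5:**
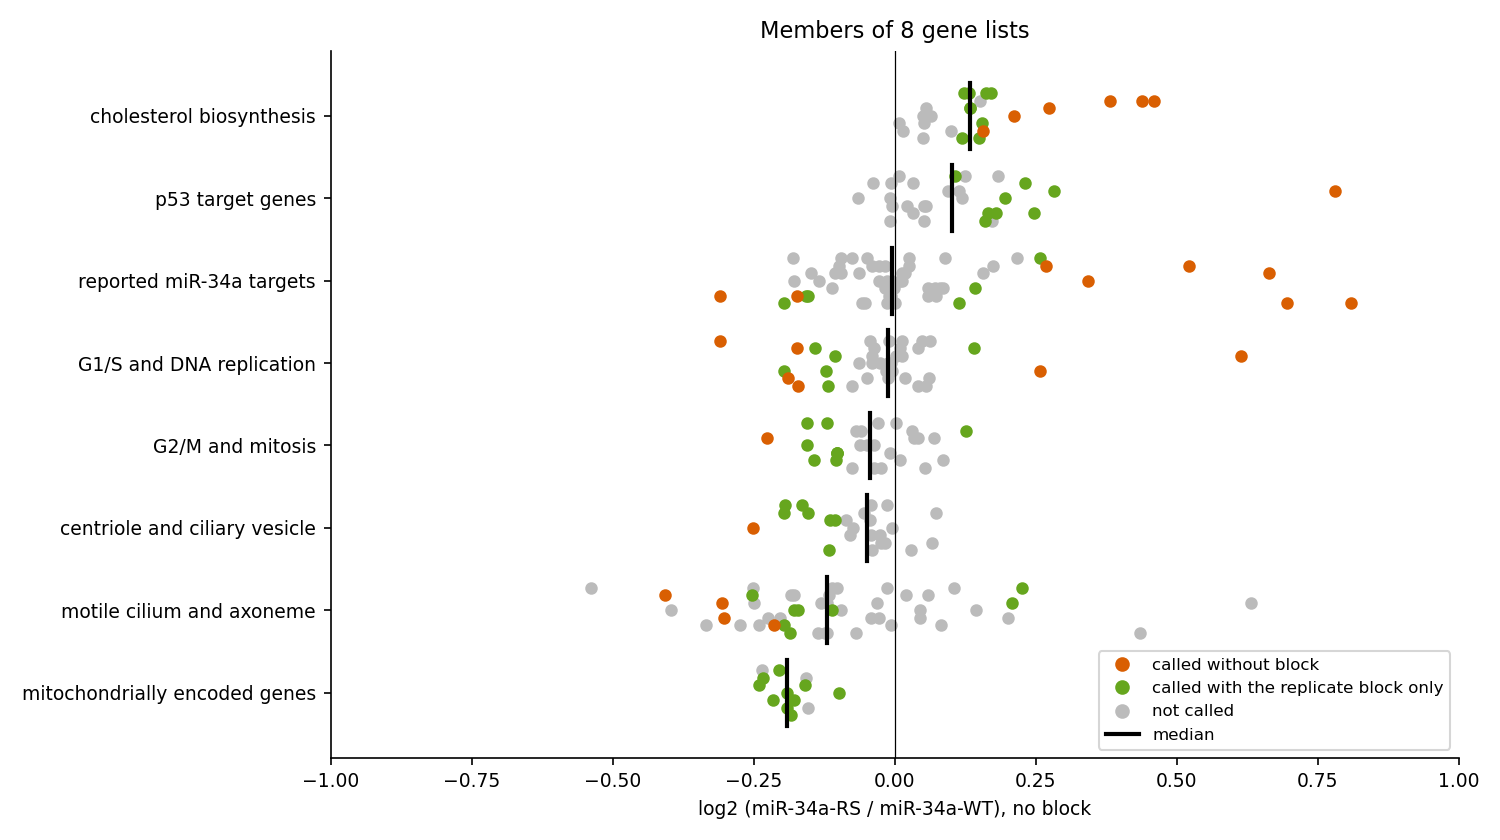
Log2 ratio of miR-34a-RS to miR-34a-WT without the block for the members of 8 gene lists (points) with the median of each list (black line); orange points are called without the block, green points with the block only, grey points by neither. All cholesterol synthesis genes lie above 0 and all mitochondrially encoded genes below 0, with medians of 0.13 and -0.19.

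Signalling lists gave a few genes each. With the block the higher and lower counts were 6 and 2 of 26 for Notch and 3 and 2 of 22 for Hippo. They were 3 and 6 of 33 for TGF-beta and SMAD and 3 and 4 of 36 for clathrin adaptors and sorting nexins. Of all tested genes 1.56% were called without the block and 12.7% with it, the latter 5.97% higher and 6.77% lower. In the Notch list of 26 genes the receptor gene NOTCH3 rose from 33.1 ± 0.702 (SD, n = 5) to 43.5 ± 1.91 CPM (SD, n = 4; log2 0.39, SE 0.06, edgeR adjusted p = 0.000932), against 63.9 ± 7.08 CPM in control (SD, n = 5). The Notch inhibitor gene NUMB rose by 0.19 (SE 0.05), a call lost in 7 of 18 alternative fits (edgeR adjusted p up to 0.107). Of 22 Hippo pathway genes the transcription factor gene TEAD2 (0.39, SE 0.06), which overlaps CD37 on the opposite strand, and AMOT, a scaffold that binds YAP (0.27, SE 0.05), rose. In the list of 33 TGF-beta and SMAD genes the receptor gene ACVR1B rose (0.27, SE 0.05) and the repressor gene SKI, whose site with 13 to 16 pairing is printed above, fell (-0.24, SE 0.06), the latter lost in 7 of 18 alternative fits (up to 0.182). Among 36 genes of clathrin adaptors, sorting nexins and retromer, AP3B2 rose (0.63, SE 0.11), as did AP3D1, and SNX12 fell (-0.25, SE 0.05), SNX12 losing its call without miR-34a-RS replicate 3 (0.076).

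Of 22 genes of the small RNA machinery edgeR called none without the block, with 1 higher and 4 lower at an unadjusted p under 0.05 and 3 lower by DESeq2, and 1 was higher and 6 lower with it, among them AGO2, the Argonaute with slicing activity (-0.21 with the block, SE 0.03, and an edgeR adjusted p of 0.0527 in the block over all 14 libraries, which loses the call), TNRC6B, a partner of Argonaute (-0.20, SE 0.03) and the processing enzyme gene DICER1 (-0.17). Of all tested genes the block called 5.97% higher and 6.77% lower. AGO2 was at 268 ± 21.7 (SD, n = 5) and 230.1 ± 21.3 CPM (SD, n = 4), with overlapping groups and an edgeR adjusted p of 0.081 without the block. Of 15 genes of the interferon and double-stranded RNA response edgeR called none with or without the block, with a median of -0.054, none at an unadjusted p under 0.05 and none by DESeq2. The adjusted p of IRF9 and ISG20, the 2 with the smallest p, was 0.48 and 0.60. Of 21 genes of the integrated stress response edgeR called none without the block, with 2 higher and 1 lower at an unadjusted p under 0.05 and 1 higher by DESeq2, and 2 were higher and 1 lower with it, and in the unfolded protein response 1 of 20 rose (3 higher and 1 lower with the block), XBP1 (0.31, SE 0.08), a call lost in 7 of 18 alternative fits (edgeR adjusted p up to 0.228).

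The remaining lists gave at most 2 calls each without the block. With it the counts were 3 higher and 2 lower for apoptosis, 6 and 0 for synaptic vesicles, 1 and 3 for lysosomes and 1 and 2 for Wnt. The block called 12.7% of all tested genes, and the counts for lysosomes and Wnt were near or below that share. The anti-apoptotic gene MCL1 rose by 0.16 (SE 0.04), 1 of 25 genes of the BCL2 family and apoptosis, and it lost its call in 8 of 18 alternative fits (edgeR adjusted p up to 0.135). In the list of 24 synaptic vesicle and exocytosis genes SH3GL1 and CPLX1 rose (CPLX1 0.45, SE 0.11, lost in 6 of 18 alternative fits at up to 0.154). In the list of 33 lysosome and autophagy genes the sialidase gene NEU1 rose (0.33, SE 0.06) and GPR137B fell. The Wnt receptor gene FZD6, which overlaps an antisense RNA, fell by 0.21 (log2 -0.21, SE 0.05), 1 of 31 Wnt genes, and was lost in 5 of 18 alternative fits (up to 0.0709). Without the block edgeR called none of 36 genes of RAS-MAPK signalling and its receptors, 24 of DNA methylation and chromatin silencing or 23 of epithelial-mesenchymal transition. At an unadjusted p under 0.05 the higher and lower counts were 3 and 3, 1 and 1, and 1 and 1. DESeq2 called 1 and 0, 0 and 1, and 0 and 0, and the block called 3 and 4, 1 and 2, and 1 and 1. The block counts for DNA methylation and epithelial-mesenchymal transition were also near or below its share over all tested genes.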

How the data were processed

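The authors deposited raw counts of reads for 63140 genes in 14 libraries, made from total RNA. The TruSeq RNA v2 kit named in the labels' protocols marks no strand. Per the submitters' processing notes, STAR 2.7.11a, featureCounts of Subread 2.0.3, edgeR 3.42.4 and the build GRCh38 were used, and the strand setting is not given in the sources used here. The test was that of edgeR 4.0.16 under R 4.3.3 (TMM, filterByExpr by group, robust glmQLFit and glmQLFTest on all 14 libraries, 3 group means, Benjamini-Hochberg over 18321 genes, threshold 0.05). The block fit used replicates 1, 2, 3 and 5 of both microRNA groups. Same-numbered libraries correlated at 0.449 to 0.706, which comes from the data and not from the labels, so the numbers were taken as pairs. No replicate pair agreed within sampling noise (chi-square per degree of freedom 3.1 to 13.5 over 16 pairs). Log2 CPM for shifts used a prior count of 2, and SE is the log2 difference over the root of F. Sites were searched in GENCODE 29, in each gene's longest 3′ UTR, with a minimum of 20 bases. A gene counts as overlapping when at least 100 exon bases lie opposite a gene of at least 1 CPM. Alternatives were DESeq2 1.42.0 and its size factors, upper-quartile factors, no filter, the 9 libraries alone, removal of GC and length trends, both blocks, and leaving out each library. Tests were tried on simulated data. Genes named are the 12 largest rises and 12 largest falls past the threshold with at least 5 CPM, a proper symbol and no overlap between groups, the 6 genes with 13 to 16 pairing and the 6 called with the block only of smallest p, up to 2 members of each of 30 lists, MIR34AHG and SIRT1, 86 in all, and 48 singled out after their values were seen, not all of them printed. The comparison and the lists were chosen with earlier results of these data known. For genes and list members named from the lists' counts rather than by the rule, the choice followed the calls. Python 3.11.15, pandas 2.3.3, bedtools 2.31.1 and matplotlib 3.10.9 were used. Some results for single genes are not reported here.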

Additional observations from a re-analysis of the deposited data

Results flagged for a closer look

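Of 180 groups of 4 or 5 libraries checked for 1 library far from the rest, 9 were flagged, where chance flags about 1 in 20. AMOT was highest in replicate 1 of both microRNA groups, at 927 CPM with miR-34a-WT and 1090 CPM with miR-34a-RS. Replicate 1 of miR-34a-RS also stood alone for FZD6, at 48.6 CPM, and for CCP110, at 145 CPM. BCL2L11 was at 33.3 CPM in miR-34a-RS replicate 2. MT-ND6 was at 747 CPM in miR-34a-WT replicate 4 and at 518 CPM in miR-34a-RS replicate 2. KRT8 was at 9.13 CPM in miR-34a-WT replicate 3 and COL3A1 at 1.02 CPM in miR-34a-WT replicate 5.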

How the results depend on the processing

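For genes higher and lower with miR-34a-RS in turn, 188 and 98 without the block, the replicate block over replicates 1, 2, 3 and 5 gave 1094 and 1241 and that over all 14 libraries 625 and 629. The 9 microRNA libraries alone gave 155 and 63, the DESeq2 Wald test 279 and 230, DESeq2 size factors 188 and 100, upper-quartile factors 234 and 75, and no filter on low counts 259 and 85. With the GC and length trend removed the counts were 355 and 420 without the block and 916 and 1599 with the replicate block. Leaving out each library in turn gave 110 to 344 higher and 31 to 417 lower genes. With the block, leaving out each replicate number, an alternative chosen after seeing the data, gave 621 to 1218 higher and 586 to 1438 lower (718 and 708 without replicate 2, 621 and 772 without replicate 3, 718 and 586 without replicate 5). The cause of these differences was not tested. The unblocked shift of genes with 13 to 16 pairing, 0.0324, and that of seed genes without it, 0.0103, moved by less than 1 pooled SD under each alternative, to 0.0363 and 0.0146 with the replicate block. With the GC and length trend removed, chosen after seeing the data, they were 0.0229 and 0.0036. Without miR-34a-WT replicate 2 they were 0.0247 and 0.00416. Of 69 called genes among those named or singled out, 44 were called in all 18 alternative fits and 25 were lost in 1 or more, and none reversed. The 4 and 5 libraries of 25.92 to 36.26 M counts gave a median standard error of 0.0586 on the log2 scale without the block, which limits the differences that can be detected.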
